A study of Mus musculus with 9 samples.

Results

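The genes described here encode the SR proteins (Srsf genes), the heterogeneous nuclear ribonucleoproteins (Hnrnp genes) and the SF3A and SF3B subunits of the U2 small nuclear ribonucleoprotein (Sf3a and Sf3b genes). They were taken from the deposited count table as every symbol with one of those 4 prefixes and a summed count of at least 100 over the 9 libraries. That gave 40 of the 17527 genes of the table, which were 11 SRSF, 20 HNRNP, 3 SF3A and 6 SF3B genes. Of 41 genes with such a prefix, the pseudogene Hnrnpa1l2-ps2 alone fell short, with a summed count of 12. The nearest gene inside the limit was Srsf12, with 182, and the next was Sf3b6, with 2475. All 40 also passed the filter on low counts.

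RNA was sequenced from the anterior lens capsule of mice, which is the anterior basement membrane of the lens together with its layer of epithelial cells. The 3 groups were old mice given EGCG (epigallocatechin gallate, a catechin of green tea), old control mice, whose titles read AGED, and young control mice, with 3 libraries each. The labels give no age, strain, sex, dose, route or length of treatment. Nor do they say whether each library stands for its own animal, so the spread behind a p-value is that between samples and may be technical.

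SR proteins carry RNA recognition motifs and a tail rich in serine and arginine, and most of them bind exonic enhancers and help the spliceosome choose an exon. Many hnRNP proteins bind introns or exons and block that choice, so the balance of both classes helps to set alternative splicing. SF3A and SF3B hold the U2 particle on the branch point of the intron. SR genes are known for ultraconserved poison exons, whose inclusion sends their own transcripts to nonsense-mediated decay. In the lens, RNA-binding proteins are known for a part in fibre cell differentiation and in cataract.

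Levels are given as CPM, which are counts relative to a library size scaled by TMM (an edgeR factor that centres most genes on no change), and ± marks the SD of 3 libraries. Where different genes are set against each other, the deposited FPKM values are used, which are scaled to gene length and library total. A gene is called at an adjusted p under 0.05 in edgeR's quasi-likelihood test, with Benjamini-Hochberg adjustment over all 13711 genes tested. Library totals lay between 13184169 and 16528179 counts, and the members took 0.4793% to 0.4948% of the counts in old EGCG, 0.4328% to 0.4699% in old control and 0.5961% to 0.5971% in young control libraries. At this depth a count of 3 in a library is 0.182 to 0.228 CPM, and the SE of a log2 fold change lay between 0.0458 and 0.125 for every member other than Srsf12 in all 3 comparisons. The 3 values of a member lay close together, with a median coefficient of variation of 4.53% in old EGCG, 5.5% in old control and 4.33% in young control libraries, against 10.2%, 10.6% and 7.77% over all genes tested.

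The tissue carried its own markers and those of neighbouring tissue. Lens fibre genes took 28.7% of the CPM in old EGCG, 35.5% in old control and 22.5% in young control libraries, and lens epithelium genes took 0.844%, 0.919% and 0.562%. All 30 photoreceptor genes tested were lower in old than in young control libraries and higher in old EGCG than in old control libraries, and their summed level ranged over 11770 to 11975 CPM in old EGCG, 1585 to 1656 CPM in old control and 27423 to 27638 CPM in young control libraries. None of the 30 was at 0 in every library of any group. All 17 genes of the inner retina and Muller glia were lower in old than in young control libraries, and 12 of them were higher with EGCG. Their summed levels were 1268 to 1302 CPM in old EGCG, 838 to 889 CPM in old control and 2481 to 2507 CPM in young control libraries. Red blood cell genes summed to 20.2 to 25.6 CPM, 6.34 to 7.98 CPM and 206 to 215 CPM in the same groups. These markers move with age and with EGCG beside every result below, and their part in those results was not tested. In tissue of this kind, fewer cells of a type and less RNA per cell cannot be told apart.

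With age the members split about evenly. In old against young control libraries 14 of 40 were called higher and 15 lower, where 35.4% of all genes were called higher and 33.8% lower, so both shares were near the background. The median log2 fold change of the members was -0.03, against 0.02 over all genes. The libraries of both groups did not overlap for 28 members, where 72.1% of all genes did not overlap. The changes were small, with 1 member (Srsf9) called and at least 1.5-fold higher and 5 (Srsf1, Srsf5, Srsf7, Srsf12 and Hnrnph1) called and at least 1.5-fold lower, where 21.1% and 26.0% of all genes passed those limits. The split depended on the scale. With library size alone it was 3 higher and 29 lower, while 21.4% of all genes were higher and 47.0% lower, and the median of all genes moved to -0.30. Scaled to lens fibre genes it was 0 higher and 36 lower, while 9.24% of all genes were higher and 63.8% lower, and that median moved to -0.63. In limma on log2(FPKM + 1) it was 4 and 28. The members' median was -0.03, -0.35 and -0.69 on the 3 count scales, 0.05 or 0.06 below the median of all genes. A change of scale moves all genes by about the same amount, so that distance could hardly change. Members minus all genes gave 0.01 with no filter on low counts, -0.11 with at least 50 counts in 3 libraries and -0.16 in limma.

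**Figure D1:**
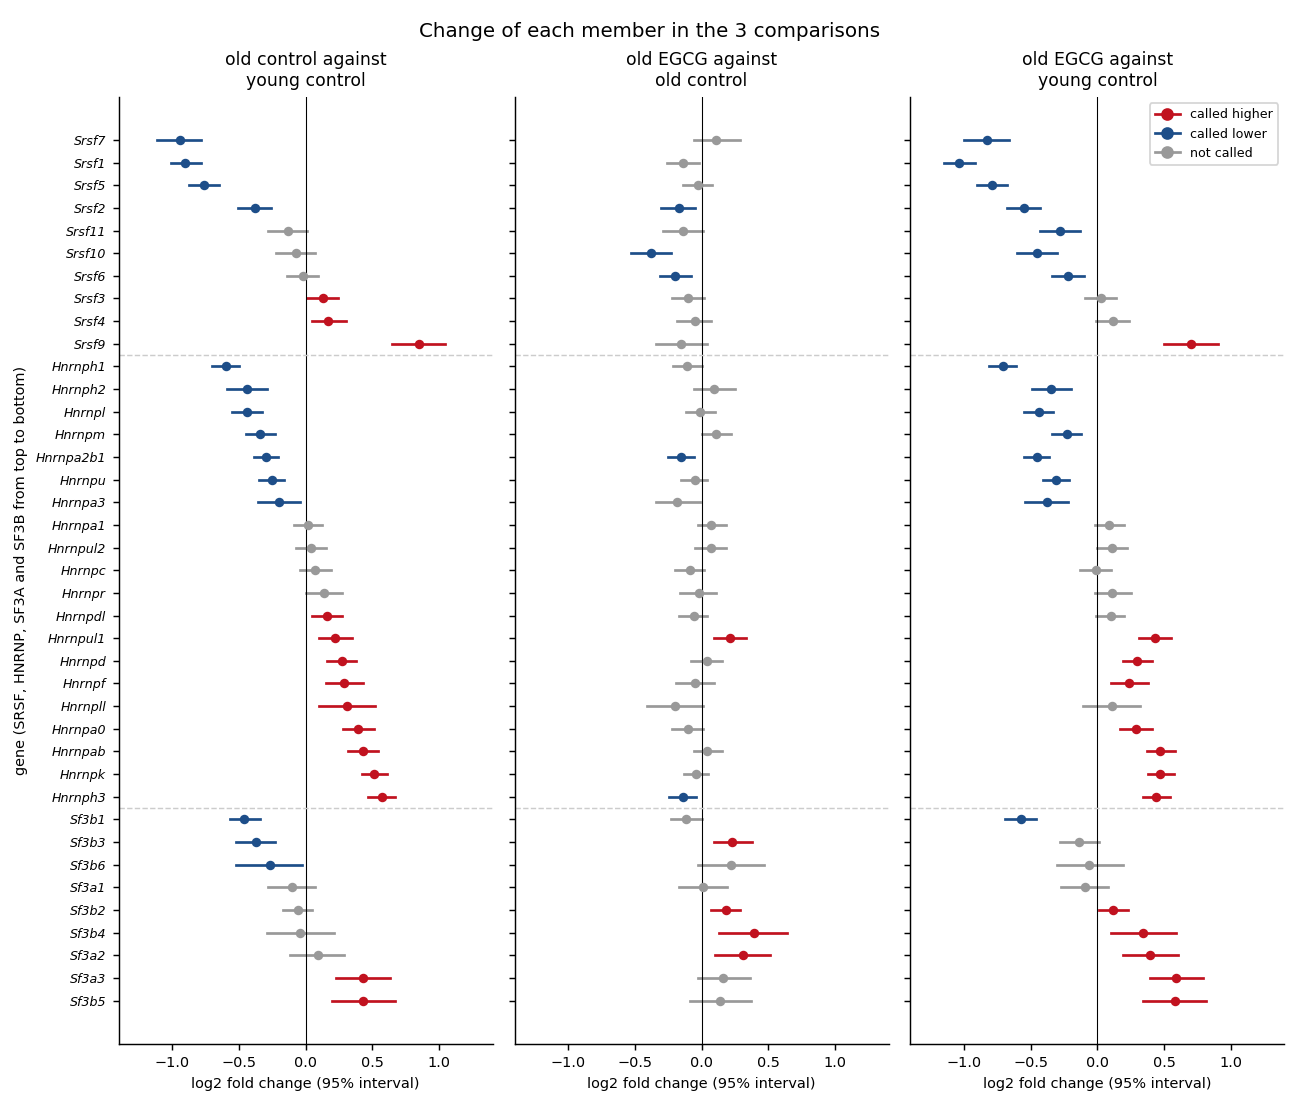
Each point is the log2 fold change of 1 member on the TMM scale, the first named group over the second, with its 95% interval from edgeR; red and blue mark members called higher and lower and grey those not called. Srsf12, whose interval runs from -2.66 to -0.65 between old and young control, is left out for its width. Points spread to both sides of 0 on this scale in the comparisons with young control and lie nearer 0 between old EGCG and old control.

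Promoter sequence is shown for 6 members, 3 of the SRSF genes whose levels moved most with age in either direction, Hnrnph1 and Hnrnpk, which moved in opposite directions on the TMM scale but were both lower with age scaled to lens fibre genes, and Sf3b1. The stretches come from RefSeq's promoter table, which has a window for 36 of the 40 members on GRCm38.p6. Each lies upstream of the transcript start that RefSeq lists for its window and outside annotated exons. They are printed 5′ to 3′ on the gene's strand. Capitals mark the GC box GGGCGG, the CCAAT box CCAAT, the ETS site CCGGAAG and the NRF1 core GCGCATG, each read on both strands.
Srsf5: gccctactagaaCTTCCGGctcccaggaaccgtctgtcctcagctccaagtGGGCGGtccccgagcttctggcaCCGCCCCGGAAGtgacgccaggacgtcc
Srsf7: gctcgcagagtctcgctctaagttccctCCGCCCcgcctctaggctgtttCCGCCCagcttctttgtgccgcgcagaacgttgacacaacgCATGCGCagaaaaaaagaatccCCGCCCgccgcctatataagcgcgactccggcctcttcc
Srsf9: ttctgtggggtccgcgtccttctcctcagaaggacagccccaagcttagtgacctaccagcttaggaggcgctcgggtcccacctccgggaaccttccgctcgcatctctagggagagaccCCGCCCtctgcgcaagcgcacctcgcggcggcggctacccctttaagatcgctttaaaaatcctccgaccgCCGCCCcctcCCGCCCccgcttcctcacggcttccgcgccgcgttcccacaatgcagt
Hnrnph1: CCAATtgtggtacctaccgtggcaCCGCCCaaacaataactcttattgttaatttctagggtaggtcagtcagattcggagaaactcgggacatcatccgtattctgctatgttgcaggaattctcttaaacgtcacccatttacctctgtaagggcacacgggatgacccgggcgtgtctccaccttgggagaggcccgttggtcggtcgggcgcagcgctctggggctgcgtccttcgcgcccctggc
Hnrnpk: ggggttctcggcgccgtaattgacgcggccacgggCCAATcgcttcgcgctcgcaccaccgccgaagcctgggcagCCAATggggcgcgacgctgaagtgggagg
Sf3b1: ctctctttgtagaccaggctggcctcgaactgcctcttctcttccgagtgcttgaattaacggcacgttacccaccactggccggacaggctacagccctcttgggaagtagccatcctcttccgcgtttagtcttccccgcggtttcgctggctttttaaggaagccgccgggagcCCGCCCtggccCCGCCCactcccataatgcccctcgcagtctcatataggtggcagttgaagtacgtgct

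The Srsf5 stretch is chr12:80945397-80945498 on the plus strand, and its last GC box and ETS site overlap by 1 base. The Srsf7 stretch is chr17:80207308-80207459 on the minus strand, and the Srsf9 stretch is chr5:115326927-115327176 on the plus strand. Hnrnph1 is shown at chr11:50376740-50376989 on the plus strand, 1 of 5 listed starts, Hnrnpk at chr13:58402143-58402247 and Sf3b1 at chr1:55027482-55027728, both on the minus strand. The Hnrnpk stretch lies within the annotated span of its gene (58391142 to 58403343). Over the whole windows of 300 bases, the GC box stood in 77.8% of the 36 members and in 68.4% of the 10886 tested genes with a window. The CCAAT box stood in 52.8% of the members, against 43% of tested genes, and was held by 13 HNRNP, 4 SRSF and 2 SF3 genes. The ETS site stood in 33.3%, against 18.8%, and was held by 6 SF3 genes, 4 SRSF genes and 2 HNRNP genes. A gene was counted if any of its listed windows held the motif, so genes with more windows had more chances. In the first listed window of each gene, the median GC content was 63.3% in the members and 61% in the tested genes. A match says only that these letters stand in the window.

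Of the 11 SRSF genes, 3 were called higher and 5 lower in old than in young control libraries, where 35.4% of all genes were higher and 33.8% lower, and their median was -0.13. The split was 1 and 10 with library size alone, where 47.0% of all genes were lower, and 0 and 10 on the lens fibre scale, where 63.8% were. The lower genes moved further than most of the higher ones. Srsf1, the founding SR protein, also known as SF2 or ASF (ENSMUSG00000018379.17, chromosome 11, 88047373 to 88053755, plus strand), had 96.8, 97.4 and 101 CPM in old control libraries, against 178, 193 and 177 CPM in young control libraries. Every old library lay far below every young one. The log2 fold change was -0.90 (SE 0.0576, edgeR adjusted p = 1.37e-18), so Srsf1 fell 1.86-fold.

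Srsf7, also known as 9G8, an SR protein with a zinc knuckle that also takes part in mRNA export (chromosome 17, 80200080 to 80207307, minus strand), had 33, 38.7 and 44 CPM in old control libraries, against 75.6, 69.4 and 77.3 CPM in young control libraries. The old libraries spread more than the young ones but stayed well apart from them, and the log2 fold change was -0.94 (SE 0.0838, edgeR adjusted p = 7.76e-14). Srsf5, the most abundant SRSF gene by FPKM in every group (chromosome 12, 80945504 to 80950507, plus strand), had 147, 169 and 154 CPM in old control libraries, against 265, 268 and 263 CPM in young control libraries. The fall was 1.69-fold (log2 fold change -0.76, SE 0.0539, edgeR adjusted p = 4.26e-17). Of the 50-base words in the protein-coding transcript of Srsf5 with the longest coding sequence, 29.2% also occur in another gene. Reads may have been split or dropped there, and how the authors counted such reads is not stated. The words of other members were taken from their transcripts in the same way.

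Srsf2, also known as SC35 and used as a marker of nuclear speckles, had 144, 138 and 116 CPM in old control libraries, against 165, 179 and 175 CPM in young control libraries. The groups did not overlap, and the gene fell 1.30-fold (log2 fold change -0.38, SE 0.0609, edgeR adjusted p = 3.62e-07). Srsf2 lies wholly within Mettl23 on the opposite strand, and since use of strand is not stated, reads of the pair may have been mixed. Srsf12, a relative of Srsf10 that antagonises other SR proteins, was close to the limit of detection, with 0.344, 1.28 and 0.62 CPM in old control libraries, against 2.9, 2.74 and 1.53 CPM in young control libraries. Its log2 fold change was -1.65 with a wide SE of 0.500 (edgeR adjusted p = 0.00329).

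Srsf9, also known as SRp30c and closely related to SRSF1, moved the other way. It had 45.7, 47.3 and 40.6 CPM in old control libraries, against 22, 23.5 and 28.8 CPM in young control libraries (chromosome 5, 115327177 to 115333080, plus strand). The groups stayed well apart. The log2 fold change was 0.85 (SE 0.098, edgeR adjusted p = 1.94e-10) and kept its sign on every scale, but scaled to lens fibre genes it was 0.19 and no longer called (adjusted p = 0.0973). Srsf3, the smallest SR protein, and Srsf4 were called 1.09-fold and 1.13-fold higher, but both were lower with library size alone, at -0.19 and -0.15, and scaled to lens fibre genes, at -0.53 and -0.48. Srsf3 had 120, 131 and 127 CPM in old control libraries, against 111, 119 and 115 CPM in young control libraries (edgeR adjusted p = 0.0454). Its call was lost in 4 of the 6 fits that each left out 1 library, at adjusted p between 0.0617 and 0.18, namely without old control replicate 2 or 3 or young control replicate 1 or 3, and that of Srsf4 without young control replicate 1 (adjusted p = 0.0651). Srsf6, Srsf10 and Srsf11 were not called, with log2 fold changes of -0.02, -0.07 and -0.13.

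**Figure D2:**
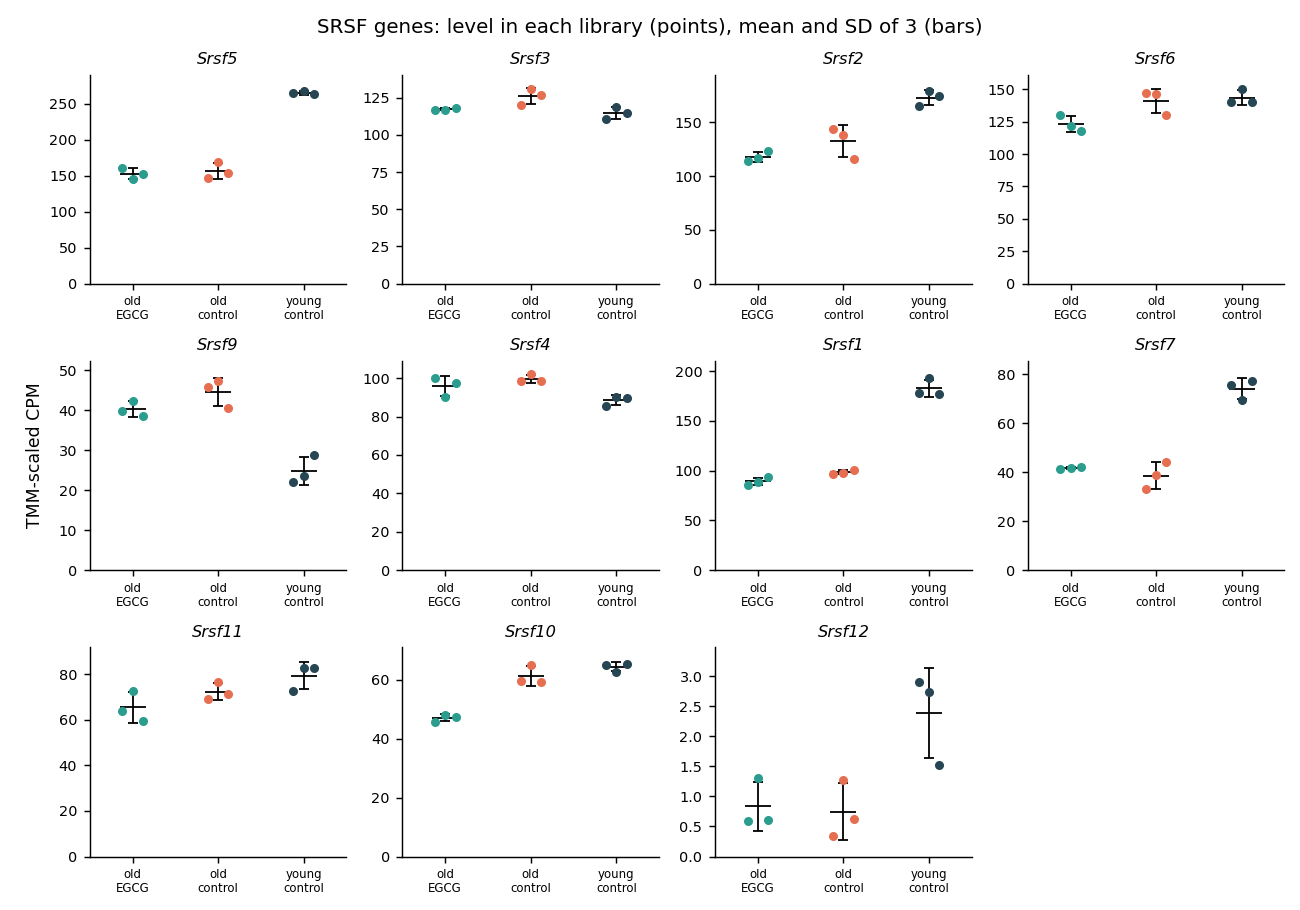
TMM-scaled CPM of the 11 SRSF genes in each library of old EGCG, old control and young control capsule, with points for libraries and bars for the mean and SD of 3; panels run from the highest to the lowest mean FPKM and each has its own axis from 0. Srsf5, Srsf2, Srsf1, Srsf7 and Srsf12 stand lower in both old groups than in young control, Srsf9 stands higher in both (not called with age when scaled to lens fibre genes), and Srsf10 is lowest in old EGCG.

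The HNRNP genes also moved to both sides with age. Of 20, 9 were called higher and 7 lower, against 35.4% and 33.8% of all genes, and the median was 0.11. On library size alone 2 were higher and 12 lower, against 47.0% of all genes lower, and on the lens fibre scale 0 and 19, against 63.8% lower. The members that bind G-rich runs, the H and F group, split among themselves. Hnrnph1 (ENSMUSG00000007850.16, chromosome 11, 50376990 to 50386528, plus strand) had 174, 174 and 173 CPM in old control libraries, against 270, 257 and 263 CPM in young control libraries. The gap was many times the spread within either group, and the gene fell 1.52-fold (log2 fold change -0.60, SE 0.0509, edgeR adjusted p = 1.75e-14). Its X-linked copy Hnrnph2 fell 1.35-fold, at 51.4, 53.5 and 61 CPM in old control libraries and 74.6, 76.9 and 73.1 CPM in young control libraries. Hnrnph3, the shortest of the group, rose on the TMM scale, with 264, 292 and 274 CPM in old control libraries and 187, 182 and 188 CPM in young control libraries (log2 fold change 0.57, SE 0.0502, edgeR adjusted p = 5.15e-14), but scaled to lens fibre genes its value was -0.08. Hnrnpf was called 1.22-fold higher, but was not called with library size alone (-0.03) and was called lower scaled to lens fibre genes (-0.36). Of its 50-base words, 49% occur in other genes.

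Hnrnpk, which binds C-rich RNA through KH domains and had the highest FPKM of the family in old EGCG and in old control libraries (chromosome 13, 58391142 to 58403343, minus strand), had 413, 434 and 431 CPM in old control libraries, against 302, 302 and 291 CPM in young control libraries. The groups lay far apart, and the log2 fold change was 0.51 (SE 0.0461, edgeR adjusted p = 1.14e-13), against -0.14 scaled to lens fibre genes. Of the 50-base words of Hnrnpk, 34.5% occur in other genes. Hnrnpab had 188, 187 and 181 CPM in old control libraries and 135, 142 and 136 CPM in young control libraries. It rose 1.35-fold on the TMM scale and was lower (-0.23) scaled to lens fibre genes. Hnrnpa0, an intronless gene, rose 1.31-fold on the TMM scale, with 170, 169 and 150 CPM in old control libraries against 120, 122 and 131 CPM in young control libraries, and was lower (-0.27) scaled to lens fibre genes. The other higher calls were Hnrnpd (1.20-fold), which binds AU-rich elements and is also known as AUF1, Hnrnpll (1.24-fold), Hnrnpul1 (1.17-fold) and Hnrnpdl (1.12-fold). Scaled to lens fibre genes all of these were called lower. With library size alone Hnrnpdl was called lower (-0.16), while Hnrnpd (-0.05), Hnrnpll (-0.01) and Hnrnpul1 (-0.10) were not called. Hnrnpll overlapped between the groups, its call was lost without old control replicate 2 (adjusted p = 0.0675) or young control replicate 1 (adjusted p = 0.0505), and that of Hnrnpdl was lost without young control replicate 2 (adjusted p = 0.072).

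Among the lower HNRNP genes was Hnrnpl, which binds CA repeats, with 143, 155 and 157 CPM in old control libraries, against 212, 198 and 205 CPM in young control libraries (log2 fold change -0.44, SE 0.0542, edgeR adjusted p = 1.15e-09). Hnrnpm had 128, 127 and 128 CPM in old control libraries and 162, 162 and 160 CPM in young control libraries, and was 1.26-fold lower. Of its 50-base words, 28.8% occur in another gene, and it overlaps March2 on the same strand. Hnrnpa2b1, which gives the A2 and B1 proteins, had 386, 398 and 378 CPM in old control libraries and 478, 486 and 465 CPM in young control libraries, 1.23-fold lower with no overlap (edgeR adjusted p = 2.11e-07). Hnrnpu, also known as scaffold attachment factor A, was 1.19-fold lower, but higher (0.20) once a trend with gene length was removed. Hnrnpa3 was 1.15-fold lower, but its call was lost without old control replicate 1 (adjusted p = 0.197), young control replicate 1 (0.0715) or young control replicate 2 (0.0904), and 91% of its 50-base words occur in other genes, mostly processed pseudogenes.

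**Figure D3:**
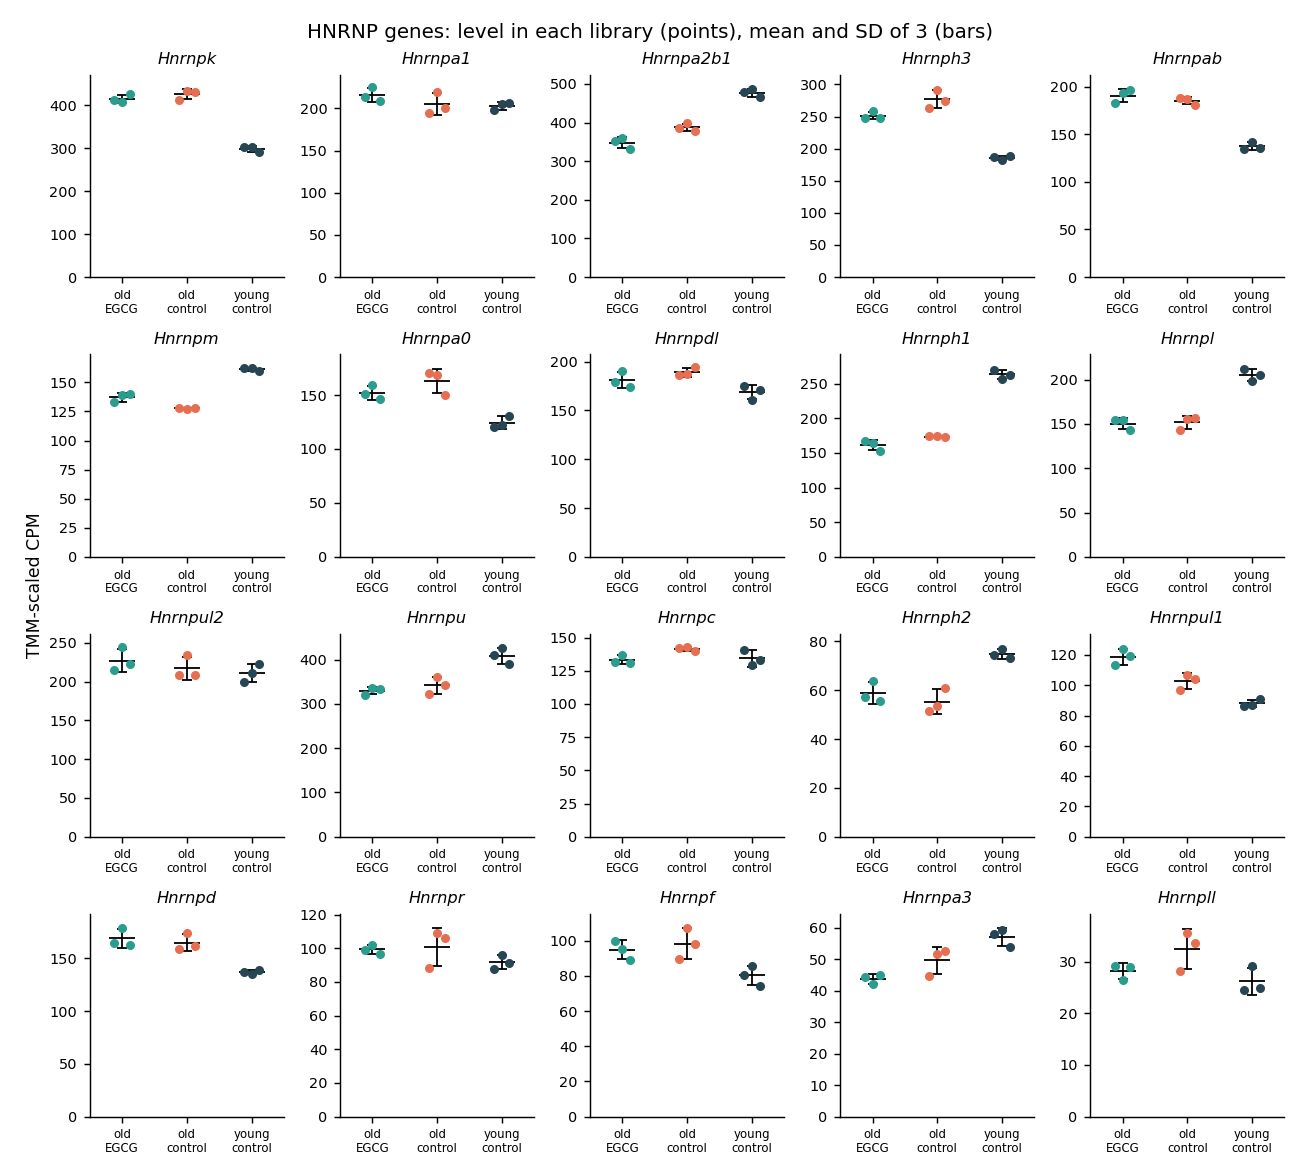
TMM-scaled CPM of the 20 HNRNP genes in each library of old EGCG, old control and young control capsule, with points for libraries and bars for the mean and SD of 3; panels run from the highest to the lowest mean FPKM and each has its own axis from 0. On this scale Hnrnpk, Hnrnph3 and Hnrnpab stand higher and Hnrnph1, Hnrnpl and Hnrnpa2b1 lower in both old groups than in young control. Scaled to lens fibre genes, Hnrnpk and Hnrnpab were called lower with age and Hnrnph3 was not called.

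Of the 9 SF3 genes, 2 were called higher and 3 lower with age, against 35.4% and 33.8% of all genes. On library size alone and on the lens fibre scale 0 were higher and 7 lower, against 47.0% and 63.8% of all genes lower. Sf3b1, the large HEAT repeat subunit that clasps the branch point and is recurrently mutated in human myelodysplasia (ENSMUSG00000025982.13, chromosome 1, 54985169 to 55027481, minus strand), had 109, 116 and 119 CPM in old control libraries, against 157, 156 and 160 CPM in young control libraries. No old library came near a young one, and the log2 fold change was -0.46 (SE 0.0568, edgeR adjusted p = 1.26e-09). Sf3b3 had 55, 53.1 and 52.2 CPM in old control libraries and 72, 68.8 and 66.6 CPM in young control libraries, a level 1.29-fold lower (edgeR adjusted p = 1.19e-05). Sf3b6, also known as p14, which contacts the branch point adenosine, had 18.7, 15 and 16.3 CPM in old control libraries and 19.8, 21.2 and 19.4 CPM in young control libraries. Its call (edgeR adjusted p = 0.0443) was lost in 5 of the 6 fits that left out 1 library, at adjusted p between 0.0583 and 0.203, and held only without old control replicate 1. Sf3a3 and Sf3b5 were 1.34-fold and 1.35-fold higher on the TMM scale. Scaled to lens fibre genes they were at -0.23 and -0.22, neither of them called. Sf3b5 was also at -0.07 once a trend with gene length was removed. Sf3a3 had 31, 35.9 and 35.8 CPM in old control libraries and 25, 23.4 and 27.9 CPM in young control libraries. Sf3b5, whose product is the smallest SF3B subunit, had 21.7, 24.3 and 22.1 CPM in old control libraries and 16.2, 15.6 and 18.6 CPM in young control libraries.

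Between old and young control libraries, 12 of 40 members were called lower in the main fit and under all 9 other settings, near the 28.0% of all genes that were, and these 12 also held in every fit that left out 1 library. They were Srsf1, Srsf2, Srsf5, Srsf7, Srsf12, Hnrnpa2b1, Hnrnph1, Hnrnph2, Hnrnpl, Hnrnpm, Sf3b1 and Sf3b3. Over the same settings 0 members were called higher throughout, where 9.23% of all genes were.

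Ratios between related members within 1 library do not depend on how libraries are scaled to each other. Pairs were chosen after their values were seen, and 3 libraries against 3 cannot give a permutation p below 0.10, so they are given with no test. The FPKM ratio of Srsf9 to Srsf1 was 2.13, 2.21 and 1.91 in old EGCG libraries, 2.18, 2.24 and 1.86 in old control libraries and 0.569, 0.561 and 0.751 in young control libraries. The order of this pair was thus turned round in both old groups. Srsf3 to Srsf7 averaged 2.99 ± 0.0248 in old EGCG, 3.5 ± 0.406 in old control and 1.66 ± 0.144 in young control libraries (SD, n = 3 each). Among the longer SR proteins, Srsf4 to Srsf5 averaged 0.295 ± 0.006 in old EGCG, 0.3 ± 0.0146 in old control and 0.157 ± 0.00475 in young control libraries, and Srsf6 to Srsf5 averaged 0.377, 0.423 and 0.253. Hnrnph3 to Hnrnph1 was 2.55, 2.69 and 2.79 in old EGCG libraries, 2.6, 2.87 and 2.71 in old control libraries and 1.19, 1.21 and 1.23 in young control libraries. Hnrnpf to Hnrnph1 averaged 0.281, 0.27 and 0.146 in the same groups. All of these ratios were apart between either old group and young control, and between old EGCG and old control those of Srsf9 to Srsf1, Srsf4 to Srsf5, Hnrnph3 to Hnrnph1 and Hnrnpf to Hnrnph1 overlapped.

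**Figure D4:**
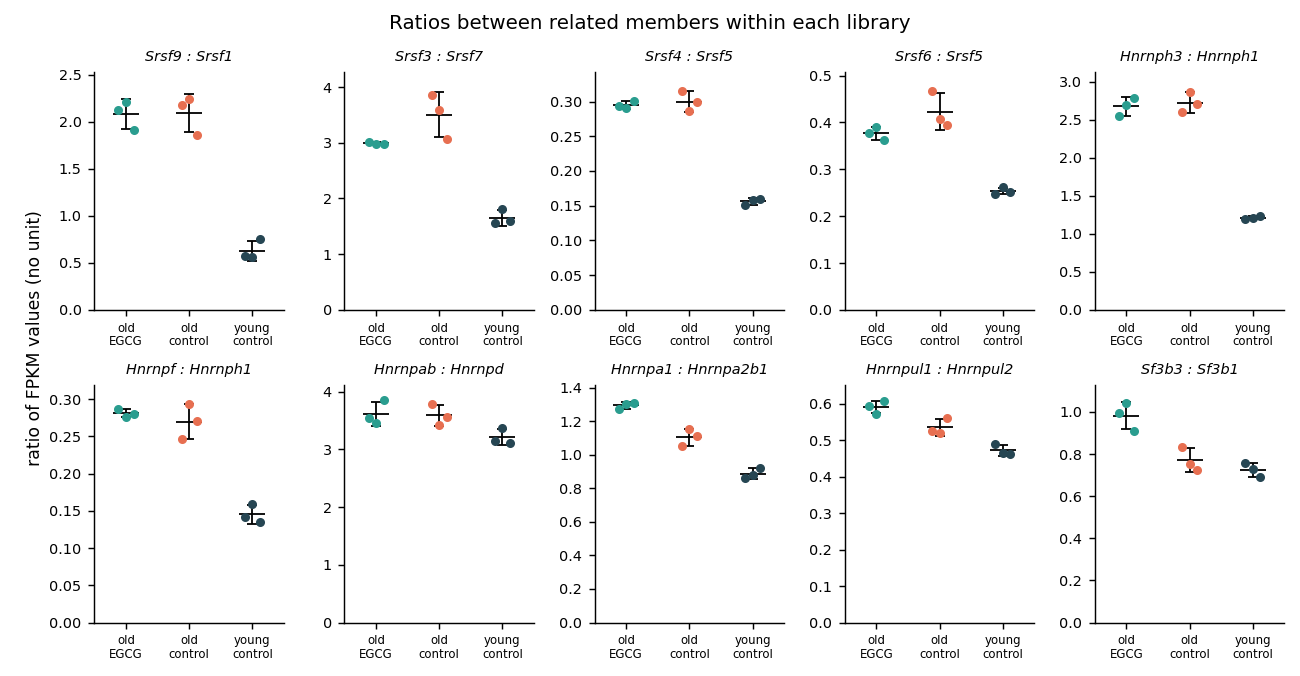
Ratio of the deposited FPKM values of 10 pairs of related members, which has no unit, within each library of old EGCG, old control and young control capsule; points are libraries and bars the mean and SD of 3, with each axis from 0. Srsf9 to Srsf1 lies near 2 in both old groups and below 1 in young control, while Sf3b3 to Sf3b1 and Hnrnpa1 to Hnrnpa2b1 stand highest in old EGCG.

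Fewer members moved with EGCG than with age, and by less. In old EGCG against old control libraries 5 of 40 were called higher and 5 lower, where 13.8% and 10.3% of all genes were, so the shares of 12.5% each were again near the background. None was changed 1.5-fold, where 9.47% of all genes were called and at least 1.5-fold higher and 2.27% at least 1.5-fold lower. The libraries did not overlap for 13 members, where 33.5% of all genes did not. The median log2 fold change was -0.04 for the members and -0.00 for all genes. On library size alone 14 members were higher and 1 lower (22.5% and 4.46% of all genes), scaled to lens fibre genes 32 and 0 (49.3% and 1.79%), and in limma on log2(FPKM + 1) 11 and 1, with the median over all genes at 0.12, 0.30 and 0.08. The count of higher members fell to 2 without old EGCG replicate 2, to 3 without old EGCG replicate 3 and to 2 without old control replicate 1. The count of lower members fell to 3 without old EGCG replicate 1, to 2 without old EGCG replicate 3 and to 1 without old control replicate 2.

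None of the 9 SF3 genes was called lower with TMM, library size alone or lens fibre scaling, where 10.3%, 4.46% and 1.79% of all genes were. The 5 higher members were 4 SF3 genes and Hnrnpul1. Their direction and call held under all 9 other settings, as for 10.9% of all genes, though each call was lost in at least 1 fit that left out 1 library. Sf3b3 had 60.9, 66.6 and 61 CPM in old EGCG libraries, against 55, 53.1 and 52.2 CPM in old control libraries (log2 fold change 0.23, SE 0.0726, edgeR adjusted p = 0.0131, and 0.0977 without old EGCG replicate 2). The old EGCG libraries lay between those of old control and those of young control. On the TMM scale Sf3b3 was the only member called lower with age and higher with EGCG. With library size alone others had both calls, such as Sf3b2 (-0.38 and 0.30) and Hnrnpm (-0.66 and 0.24). Scaled to lens fibre genes 36 members were called lower with age and 32 higher with EGCG. Both comparisons share the old control libraries. Sf3b2, the most abundant SF3 gene by FPKM, had 179, 188 and 189 CPM in old EGCG libraries, against 160, 173 and 160 CPM in old control libraries (log2 fold change 0.18, SE 0.0541, edgeR adjusted p = 0.0125, and 0.0523 without old EGCG replicate 2). Sf3a2 had 32.3, 31.2 and 33.8 CPM in old EGCG libraries, against 25.7, 25.8 and 27.2 CPM in old control libraries, with no overlap (log2 fold change 0.31, SE 0.102, edgeR adjusted p = 0.0228). That call was lost without old EGCG replicate 3, old control replicate 1 or old control replicate 2, at adjusted p between 0.0614 and 0.0777.

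Sf3b4, a subunit with RNA recognition motifs, had 24.5, 21.4 and 28.2 CPM in old EGCG libraries, against 16, 18.9 and 21.8 CPM in old control libraries, which overlap (log2 fold change 0.39, SE 0.124, edgeR adjusted p = 0.018, but 0.142 without old EGCG replicate 3 and 0.14 without old control replicate 1). Of its 50-base words, 49.3% occur in another gene. Hnrnpul1, a relative of hnRNP U, had 113, 124 and 119 CPM in old EGCG libraries, against 96.6, 107 and 104 CPM in old control libraries (log2 fold change 0.21, SE 0.0606, edgeR adjusted p = 0.0079, but 0.0628 without old EGCG replicate 2 and 0.0591 without old control replicate 1). It was called higher in all 3 comparisons. The SF3 genes not called had log2 fold changes of 0.22 (Sf3b6), 0.16 (Sf3a3), 0.14 (Sf3b5), 0.01 (Sf3a1) and -0.12 (Sf3b1). The FPKM ratio of Sf3b3 to Sf3b1, a pair chosen after its values were seen, was 0.996, 1.04 and 0.911 in old EGCG libraries, 0.835, 0.754 and 0.724 in old control libraries and 0.756, 0.731 and 0.69 in young control libraries. The old EGCG values lay above all others, and those of both control groups overlapped.

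**Figure D5:**
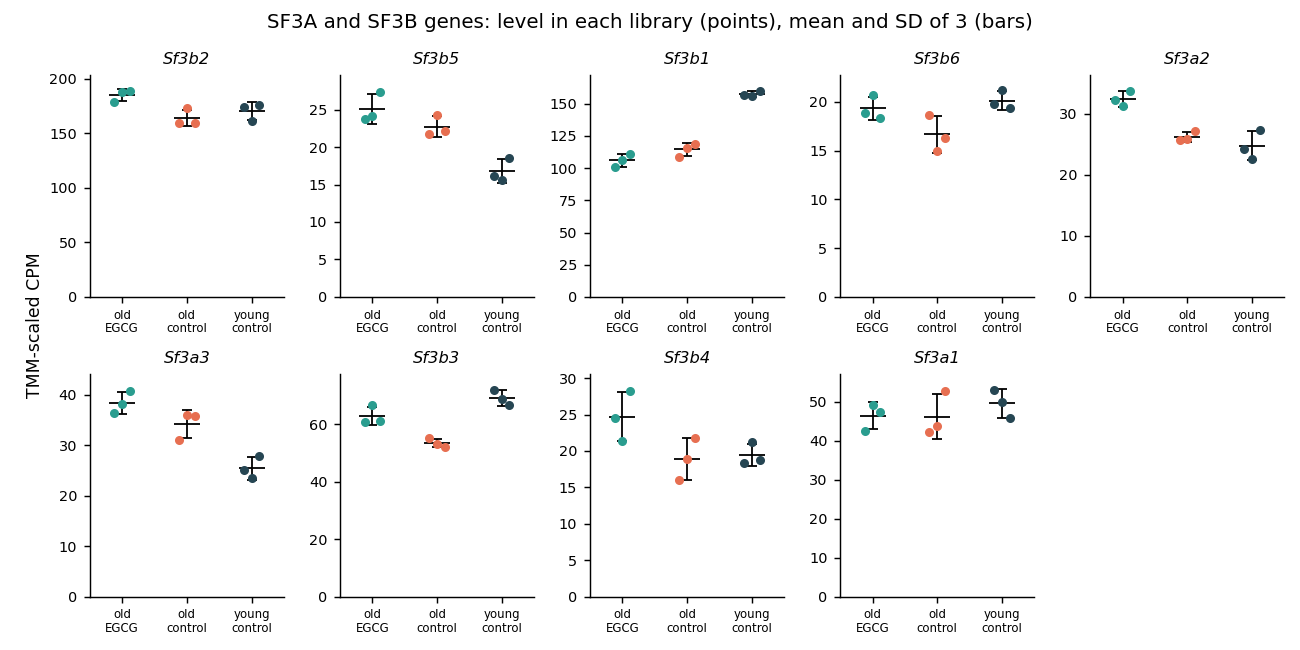
TMM-scaled CPM of the 9 SF3A and SF3B genes in each library of old EGCG, old control and young control capsule, with points for libraries and bars for the mean and SD of 3; panels run from the highest to the lowest mean FPKM and each has its own axis from 0. Sf3b2, Sf3b3 and Sf3a2 stand higher in old EGCG than in old control, and Sf3b1 is highest in young control.

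Of the 11 SRSF genes, none was called higher on the TMM scale, 1 with library size alone and 5 scaled to lens fibre genes. Of all genes, 13.8%, 22.5% and 49.3% were called higher on those scales. The 5 lower members were Srsf10, Srsf6, Srsf2, Hnrnpa2b1 and Hnrnph3. None of these 5 was called lower throughout the 9 other settings, as 1.62% of all genes were. Scaled to lens fibre genes all but Srsf10 had positive values, of which those of Hnrnpa2b1 and Hnrnph3 were called. Srsf10, also known as SRp38, which represses splicing when it is dephosphorylated (chromosome 4, 135855747 to 135869908, plus strand), had 45.8, 48.2 and 47.4 CPM in old EGCG libraries, against 59.5, 65 and 59.1 CPM in old control libraries. The gap was wider than the spread of either group. Of the 50-base words of Srsf10, 18.7% occur in other genes. The fall was 1.30-fold (log2 fold change -0.38, SE 0.0745, edgeR adjusted p = 9.03e-05), it kept its call in every fit that left out 1 library, and scaled to lens fibre genes it was -0.07 and not called. Srsf6 had 130, 122 and 118 CPM in old EGCG libraries and 147, 146 and 130 CPM in old control libraries, 1.15-fold lower (edgeR adjusted p = 0.0106). The groups met at their edge, the call was lost without old EGCG replicate 3, old control replicate 1 or old control replicate 2, at adjusted p between 0.0505 and 0.0763, and the value was 0.11 scaled to lens fibre genes.

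Srsf2 had 114, 117 and 123 CPM in old EGCG libraries and 144, 138 and 116 CPM in old control libraries, which overlap, and was 1.13-fold lower (edgeR adjusted p = 0.0375), but 0.14 on the log2 scale when scaled to lens fibre genes. The call was lost without old EGCG replicate 1 or 2 or old control replicate 1 or 2, at adjusted p between 0.0945 and 0.246. Hnrnpa2b1 had 352, 360 and 332 CPM in old EGCG libraries and 386, 398 and 378 CPM in old control libraries, 1.11-fold lower with no overlap (edgeR adjusted p = 0.0108), but 0.15 and higher when scaled to lens fibre genes. Hnrnph3 had 248, 258 and 248 CPM in old EGCG libraries and 264, 292 and 274 CPM in old control libraries, 1.10-fold lower (edgeR adjusted p = 0.0389), but 0.17 and higher when scaled to lens fibre genes. Both calls were lost without old EGCG replicate 3 or old control replicate 2, that of Hnrnph3 also without old EGCG replicate 1, at adjusted p between 0.0619 and 0.241. Of the 5, Hnrnph3 alone had been higher in old than in young control. Within libraries, the FPKM ratio of Hnrnpa1 to Hnrnpa2b1 was 1.27, 1.3 and 1.31 in old EGCG, 1.05, 1.15 and 1.11 in old control and 0.86, 0.877 and 0.923 in young control libraries, so all 3 groups were apart.

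Set against young control, the old EGCG libraries gave 13 members higher and 16 lower, where 32.3% and 31.4% of all genes were called, and 32 members did not overlap, where 68.3% of all genes did not. With library size alone the split was 7 and 20 (22.6% and 40.7% of all genes), scaled to lens fibre genes 3 and 27 (2198 and 6619 of 13711 genes, the lower ones 48.3%), and in limma on log2(FPKM + 1) 8 and 21 (22.8% and 41.0%). Both comparisons with young control share its 3 libraries, so their values are given side by side only. On the TMM scale, of the members called between old and young control, 10 were called higher in both comparisons and 13 lower in both. Scaled to lens fibre genes, 0 members were called higher in old than in young control libraries. The share of all genes called in both comparisons was not counted, so the counts of 10 and 13 have no background to be read against. Srsf1 had a log2 fold change of -1.04 (SE 0.0581) in old EGCG against young control and -0.90 in old control against young control. Srsf5 had -0.79 and -0.76, and Hnrnph1 had -0.71 and -0.60. Among the higher members, Hnrnpk had 0.47 and 0.51, Hnrnpab 0.47 and 0.43, and Hnrnph3 0.44 and 0.57, and scaled to lens fibre genes Hnrnpab and Hnrnph3 were not called in old EGCG against young control.

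In old EGCG against young control, 8 of 11 SRSF genes were called lower and 1 higher, where 31.4% of all genes were lower and 32.3% higher, and the family's median was -0.45. It was 1 higher and 9 lower with library size alone, where 40.7% of all genes were lower, and on the lens fibre scale 1 and 10, against 48.3% lower. Srsf6, Srsf10 and Srsf11, which were not called between old and young control, were 1.17-fold, 1.37-fold and 1.21-fold lower here. Srsf11 had 64.1, 72.8 and 59.5 CPM in old EGCG libraries and 72.5, 82.7 and 82.9 CPM in young control libraries, which overlap (edgeR adjusted p = 0.0011). Once a trend with gene length was removed, Srsf11 was at -0.11 and not called (edgeR adjusted p = 0.17). Sf3b3 and Sf3b6, called lower with age, were not called here, at -0.14 (95% interval -0.28 to 0.01) and -0.06 (-0.30 to 0.19). Sf3a2, Sf3b2 and Sf3b4 were called higher here, 1.31-fold, 1.09-fold and 1.27-fold. With library size alone none of the 3 was called, with Sf3a2 at 0.20, Sf3b2 at -0.08 and Sf3b4 at 0.15. Scaled to lens fibre genes Sf3b2 was called lower (-0.23), while Sf3a2 (0.04) and Sf3b4 (-0.00) were not called. Nor were these genes called once a trend with gene length was removed, at 0.07 for Sf3a2, 0.03 for Sf3b2 and 0.03 for Sf3b4. The calls of Sf3b2 and Sf3b4 were also lost when single libraries were left out, at edgeR adjusted p between 0.0516 and 0.261. These were old EGCG replicate 3 or young control replicate 1 for both genes. For Sf3b2 they were also old EGCG replicate 2 or young control replicate 2, and for Sf3b4 young control replicate 3. Srsf12, 2.82-fold lower, lost its call without young control replicate 1 (adjusted p = 0.0532).

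Hnrnpa1, Hnrnpc, Hnrnpr, Hnrnpul2 and Sf3a1 were called in none of the 3 comparisons on the TMM scale. Hnrnpa1, which competes with SR proteins at many splice sites, had 214, 225 and 209 CPM in old EGCG, 195, 220 and 201 CPM in old control and 198, 205 and 206 CPM in young control libraries. Of its 50-base words, 46.4% occur in other genes. The 95% intervals of Hnrnpa1 ran from -0.09 to 0.12 for old against young control and from -0.03 to 0.18 for old EGCG against old control. With library size alone Hnrnpa1 (-0.30), Hnrnpc (-0.25), Hnrnpr (-0.18), Hnrnpul2 (-0.28) and Sf3a1 (-0.42) were all called lower with age. Scaled to lens fibre genes they were all called higher with EGCG, at 0.38, 0.22, 0.28, 0.37 and 0.31 in that order. Hnrnpc, which binds uridine tracts, had 132, 137 and 131 CPM in old EGCG, 142, 143 and 140 CPM in old control and 141, 129 and 133 CPM in young control libraries.

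The summed FPKM of the SRSF family was 309 to 317 in old EGCG, 295 to 321 in old control and 470 to 483 in young control libraries. That of the HNRNP genes was 908 to 944, 820 to 886 and 1023 to 1032, and that of the SF3 genes 188 to 204, 150 to 165 and 194 to 207 in the same groups. FPKM is scaled to the library total, so these sums move with the rest of the library. By FPKM, which allows genes to be ranked, Srsf5 led the SRSF family with 90.6, 84.8 and 180 FPKM on average in old EGCG, old control and young control libraries, or 29%, 27.6% and 37.5% of the family's summed FPKM. Srsf3 followed in both old groups, at 14.3% of the family in each, and Srsf2 in young control libraries, at 11.5%. Srsf9 took 10.9% and 11.2% of the family's FPKM in old EGCG and old control libraries, rank 4, and 5.01% in young control libraries, rank 8. In the HNRNP family Hnrnpk led in old EGCG and old control libraries, at 13% and 13.1%, and Hnrnpa2b1 in young control libraries, at 12.8%, where Hnrnpk had 9.59%. Neighbours in these orders were often closer than their spread, as for Hnrnpa1 (10.7% to 11.4%) and Hnrnph3 (11.1% to 11.5%) in old control libraries. Sf3b2 led the SF3 genes in every group, at 28.9%, 28.7% and 29.5%, and Sf3b1 took 7.21%, 8.8% and 11.9%, with no overlap between any of the groups.

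The genes around the members were read from 9 lists with 139 tested genes. Of these, 49 were called higher and 60 lower in old than in young control libraries, with a median of -0.13, and 24 higher and 88 lower with library size alone, or 8 and 111 scaled to lens fibre genes. Of all genes, 35.4% were higher and 33.8% lower on the TMM scale, 21.4% and 47.0% with library size alone, and 9.24% and 63.8% scaled to lens fibre genes. Genes of SR-related proteins had 13 of 20 called lower and 2 higher on the TMM scale, and 18 and 1 with library size alone. Srrm2, a scaffold of nuclear speckles, had 127 ± 5.91 CPM in old control and 376 ± 12.1 CPM in young control libraries (log2 fold change -1.56, SE 0.052, edgeR adjusted p = 1.49e-29). Pnisr fell 3.35-fold and Luc7l3, which is associated with the U1 particle, 1.73-fold. Kinases that phosphorylate SR proteins had 7 of 10 members lower and 2 higher on the TMM scale, and 8 and 0 with library size alone, among them Srpk2 (1.68-fold lower), Prpf4b (1.67-fold) and Clk1 (1.35-fold).

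Of 10 genes of the U1 particle and the Sm ring, 7 were called higher and 1 lower with age on the TMM scale, where 35.4% and 33.8% of all genes were, but 2 and 2 with library size alone, 0 and 6 scaled to lens fibre genes, and 1 and 4 once the length trend was removed. The lower one was Snrnp70, which encodes the U1-70K protein, with 123 ± 6.84 CPM in old control and 211 ± 8.26 CPM in young control libraries (log2 fold change -0.78, SE 0.0561, edgeR adjusted p = 6.77e-17). Snrpf and Snrpe were 1.72-fold and 1.63-fold higher on the TMM scale, and both were not called scaled to lens fibre genes. Of 15 other genes of the U2 particle and branch point, 9 were higher and 3 lower, and 2 and 8 scaled to lens fibre genes. On that last scale 9.24% of all genes were higher and 63.8% lower. Rbm17 had 163 ± 5.05 CPM in old control and 69.3 ± 1.68 CPM in young control libraries, and Snrpa1, the U2 A' protein, had 66.2 ± 7.14 and 28.4 ± 2.01 CPM. Both kept a higher call on every scale tried, and Dhx15 (1.47-fold higher on the TMM scale) was at -0.10 scaled to lens fibre genes.

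The next counts stand beside 35.4% of all genes higher and 33.8% lower on the TMM scale. Those shares were 21.4% and 47.0% with library size alone and 9.24% and 63.8% scaled to lens fibre genes. In the U5 and tri-snRNP list 6 of 15 were higher and 6 lower, and scaled to lens fibre genes 1 was higher and 11 lower. Sart1 was 2.03-fold higher and Prpf8, the core of the spliceosome, 1.53-fold lower. Prpf6 was 1.35-fold higher, but lower (-0.22) scaled to lens fibre genes. The catalytic spliceosome list had 5 of 19 higher and 6 lower, or 3 and 14 with library size alone, among them Syf2 (2.14-fold higher), Cwc15 (1.64-fold higher) and Prpf19 (1.57-fold higher, but -0.01 scaled to lens fibre genes). The exon junction complex had 3 of 5 higher and 1 lower, with Magohb 2.79-fold higher, Rbm8a 1.35-fold higher (but -0.23 scaled to lens fibre genes) and Casc3 1.37-fold lower. Of 10 genes of nonsense-mediated decay 2 were higher and 4 lower, or 1 and 8 with library size alone, with Upf3a 2.34-fold higher, Smg1 2.70-fold lower and Upf3b 1.70-fold lower. Among 35 other splicing regulators 13 were higher and 19 lower, or 7 and 23 with library size alone, with Qk (1.85-fold) and Rbm24 (1.82-fold) higher and Khdrbs3, also known as SLM2, 4.70-fold lower. Qk and Rbm24 kept a higher call on every scale tried.

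With EGCG, 8 of the 139 genes were called higher and 17 lower than in old control libraries on the TMM scale, where 13.8% and 10.3% of all genes were. The split was 30 and 4 with library size alone, where 22.5% and 4.46% of all genes were higher and lower, and on the lens fibre scale 99 and 1, against 49.3% and 1.79%. Khdrbs3 had 32.2 ± 3.08 CPM in old EGCG and 12.1 ± 0.687 CPM in old control libraries (log2 fold change 1.42, SE 0.106, edgeR adjusted p = 2.2e-15). Its direction was that of the photoreceptor genes in both comparisons, and whether their cells are its source was not tested. Clk1, a kinase of SR proteins, had 54 ± 6.01 CPM in old EGCG and 76.5 ± 3.04 CPM in old control libraries (log2 fold change -0.50, SE 0.0734, edgeR adjusted p = 3.63e-07), and was lower on every scale tried. The other named lower genes were Arglu1 (1.26-fold), Tra2a (1.25-fold), Bcas2 (1.25-fold), Rbm5 (1.26-fold), Tia1 (1.39-fold), Clk4 (1.22-fold), Srek1 (1.20-fold), Snrnp70 (1.20-fold) and Rbm17 (1.15-fold), none of which was called scaled to lens fibre genes, where Clk4, Srek1, Snrnp70 and Rbm17 turned positive. Sf1, the branch point binding protein, was 1.18-fold higher, Dhx16 1.23-fold and Crnkl1 1.34-fold. Calls of Clk4, Crnkl1, Ddx23, Dhx16, Rbm17, Srek1 and Srpk2 were lost when single libraries were left out, Ddx23 (1.13-fold higher) and Srpk2 (1.15-fold higher) in 4 and 5 of the 6 such fits, at adjusted p between 0.0554 and 0.252 over the 7 genes.

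As annotated in GENCODE M21 on GRCm38, the members vary in features that the choice by name did not use. The same counts were not made over all genes, so none of these features is shown to be particular to the members. At least 1 transcript marked for nonsense-mediated decay is annotated for 20 of the 40, namely 9 of the 11 SRSF genes, 10 of the 20 HNRNP genes and 1 of the 9 SF3 genes (Sf3b1). A retained intron transcript is annotated for 29. For 11 members at least 10% of the 50-base words of the transcript taken also occur in other genes. They are Srsf3 (31.5%), Srsf5, Srsf10, Hnrnpa1, Hnrnpa3, Hnrnpc (12.3%), Hnrnpf, Hnrnph2 (18.2%), Hnrnpk, Hnrnpm and Sf3b4. The number of transcripts runs from 1, as in Hnrnpa0 and Sf3b5, to 34 in Hnrnpk, with a median of 7. These gene totals do not separate the productive from the other transcripts. Across the 40 genes, Spearman's rho between the number of transcripts and the log2 fold change was -0.25 for old against young control, -0.36 for old EGCG against old control and -0.36 for old EGCG against young control, while rho with gene span, transcript length and exon number lay between -0.06 and 0.13. These are descriptions across genes, which share libraries and are not independent.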

How the data were processed

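RNA-seq libraries of the anterior lens capsule were made with a SMARTER kit, per the labels' protocols. The authors deposited raw read counts per gene symbol and FPKM values, and genome builds GRCm38 and mm10 stand in the submitters' processing notes. Not given in the sources used here are the aligner, the counter, its annotation and its use of strand. The deposited FPKM equalled the count over 1 length per gene and the library total within 0.01% in all 138164 entries with a count.

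Counts of the 9 libraries were fitted together in edgeR 4.0.16 (R 4.3.3) after its expression filter and TMM scaling (factors 0.8809 to 1.131), with the quasi-likelihood test and Benjamini-Hochberg adjustment over 13711 genes and a threshold of 0.05. The biological coefficient of variation was 7.89%, and the fit was tested on simulated data. Alternatives were library size alone, scaling to lens fibre genes, no filter on low counts, at least 50 counts in 3 libraries, removal of a length trend, a replicate block, only the groups compared, DESeq2 1.42.0, limma 3.58.1 on log2(FPKM + 1), and leaving out each library.

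Replicates of a group correlated at 0.9931 to 0.9952 (Pearson's r of log2 CPM across genes) and differed by more than sampling noise, so all 9 were kept. Members and gene lists were chosen with earlier results of these data known. Named in full were, for old against young control and for old EGCG against old control, the 4 higher and 4 lower called members of a family that had the lowest p, the 3 members of each family with the highest FPKM, up to 3 in each direction against young control for old EGCG, and up to 3 called genes per pathway list. Other members were named after their values were seen. Intervals cover the spread in the fit, and the floor of 3 counts covers counting error only. Transcripts and overlaps come from GENCODE M21 and promoter windows from RefSeq (GRCm38.p6). Planned features of protein sequence are not analysed here.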

Additional observations from a re-analysis of the deposited data

How the results depend on the processing

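In old control against young control, leaving out single libraries gave 11 to 15 members higher, 13 to 15 lower and a median of -0.04 to 0.01 on the log2 scale. Higher, lower and median were 3, 29 and -0.35 with library size alone, 0, 36 and -0.69 scaled to lens fibre genes, and 4, 28 and -0.34 in limma. In old EGCG against old control, leaving out single libraries gave 2 to 5 higher, 1 to 6 lower and a median of -0.07 to -0.00. The same 3 values were 14, 1 and 0.09 with library size alone, 32, 0 and 0.27 scaled to lens fibre genes, and 11, 1 and 0.08 in limma, and 3 were lower with only the groups compared. In old EGCG against young control, leaving out single libraries gave 11 to 14 higher, 15 to 16 lower and a median of 0.00 to 0.02. Higher and median were 7 and -0.19 with library size alone and 8 and -0.18 in limma, higher, lower and median were 3, 27 and -0.34 scaled to lens fibre genes, and the median was -0.02 with at least 50 counts in 3 libraries and -0.04 in DESeq2. The cause of these differences was not tested. With the replicate block the counts were 14 and 15, 5 and 5, and 13 and 16 in the 3 comparisons, and it changed none of these 6 counts. For libraries of the same number, deviations of log2 CPM from the group mean correlated at -0.0201 to 0.0298 across groups. These values show no sign that the numbers pair libraries, but cannot exclude it. Of the members' values, 809 kept sign and call under the settings other than leaving out a library, 72 gained a call, 54 lost one with the same sign, and 141 changed sign, called or not. With a library left out 641 kept both, 10 gained a call, 45 lost one with the same sign and 24 changed sign. Depth limits Srsf12, whose lowest library held 5 counts.

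The next values are log2 fold changes of old control against young control. With library size alone the sign turned for Hnrnpa1 (-0.30), Hnrnpc (-0.25), Hnrnpd (-0.05), Hnrnpdl (-0.16), Hnrnpf (-0.03), Hnrnpll (-0.01), Hnrnpr (-0.18), Hnrnpul1 (-0.10), Hnrnpul2 (-0.28), Sf3a2 (-0.24), Srsf3 (-0.19) and Srsf4 (-0.15). Scaled to lens fibre genes the sign turned for Hnrnpa0 (-0.27), Hnrnpa1 (-0.64), Hnrnpab (-0.23), Hnrnpc (-0.58), Hnrnpd (-0.39), Hnrnpdl (-0.49), Hnrnpf (-0.36), Hnrnph3 (-0.08), Hnrnpk (-0.14), Hnrnpll (-0.34), Hnrnpr (-0.52), Hnrnpul1 (-0.43), Hnrnpul2 (-0.61), Sf3a2 (-0.57), Sf3a3 (-0.23), Sf3b5 (-0.22), Srsf3 (-0.53) and Srsf4 (-0.48). With the length trend removed the sign turned for Hnrnpa1 (-0.27), Hnrnpu (0.20), Sf3a1 (0.03), Sf3a2 (-0.25), Sf3b5 (-0.07), Srsf10 (0.15), Srsf11 (0.05) and Srsf3 (-0.07). In limma on log2(FPKM + 1) the sign turned for Hnrnpa1 (-0.30), Hnrnpc (-0.24), Hnrnpd (-0.05), Hnrnpdl (-0.16), Hnrnpf (-0.03), Hnrnpll (-0.01), Hnrnpr (-0.17), Hnrnpul1 (-0.09), Hnrnpul2 (-0.27), Sf3a2 (-0.22), Srsf3 (-0.19) and Srsf4 (-0.14). With at least 50 counts in 3 libraries the sign turned for Hnrnpa1 (-0.03) and Hnrnpul2 (-0.01). With only the groups compared the sign turned for Hnrnpa1 (-0.03) and Hnrnpul2 (-0.00). In DESeq2 the sign turned for Hnrnpa1 (-0.03) and Hnrnpul2 (-0.00). It also turned when a library was left out for Hnrnpa1 (-0.03 to 0.06), Hnrnpul2 (-0.01 to 0.08), Sf3b4 (-0.15 to 0.07) and Srsf6 (-0.05 to 0.04).

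The next values are log2 fold changes of old EGCG against old control. With library size alone the sign turned for Hnrnpa0 (0.03), Hnrnpc (0.04), Hnrnpdl (0.06), Hnrnpf (0.08), Hnrnph1 (0.02), Hnrnpk (0.09), Hnrnpl (0.12), Hnrnpr (0.10), Hnrnpu (0.07), Sf3b1 (0.01), Srsf3 (0.03), Srsf4 (0.07) and Srsf5 (0.09). Scaled to lens fibre genes the sign turned for Hnrnpa0 (0.21), Hnrnpa2b1 (0.15), Hnrnpa3 (0.13), Hnrnpc (0.22), Hnrnpdl (0.24), Hnrnpf (0.26), Hnrnph1 (0.20), Hnrnph3 (0.17), Hnrnpk (0.27), Hnrnpl (0.30), Hnrnpll (0.10), Hnrnpr (0.28), Hnrnpu (0.25), Sf3b1 (0.19), Srsf1 (0.17), Srsf11 (0.16), Srsf2 (0.14), Srsf3 (0.21), Srsf4 (0.25), Srsf5 (0.27), Srsf6 (0.11) and Srsf9 (0.16). With the length trend removed the sign turned for Sf3a1 (-0.01). In limma on log2(FPKM + 1) the sign turned for Hnrnpa0 (0.03), Hnrnpc (0.04), Hnrnpdl (0.06), Hnrnpf (0.07), Hnrnph1 (0.02), Hnrnpk (0.09), Hnrnpl (0.12), Hnrnpr (0.10), Hnrnpu (0.07), Sf3b1 (0.01), Srsf3 (0.03), Srsf4 (0.07) and Srsf5 (0.10). It also turned when a library was left out for Hnrnpd (-0.01 to 0.07), Hnrnpf (-0.11 to 0.02), Hnrnpl (-0.05 to 0.03), Hnrnpr (-0.11 to 0.04), Sf3a1 (-0.05 to 0.11), Srsf12 (-0.32 to 0.81) and Srsf5 (-0.08 to 0.02).

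The next values are log2 fold changes of old EGCG against young control. With library size alone the sign turned for Hnrnpa1 (-0.10), Hnrnpdl (-0.10), Hnrnpll (-0.09), Hnrnpr (-0.08), Hnrnpul2 (-0.09), Sf3b2 (-0.08), Srsf3 (-0.17) and Srsf4 (-0.08). Scaled to lens fibre genes the sign turned for Hnrnpa0 (-0.06), Hnrnpa1 (-0.26), Hnrnpd (-0.04), Hnrnpdl (-0.25), Hnrnpf (-0.11), Hnrnpll (-0.24), Hnrnpr (-0.23), Hnrnpul2 (-0.24), Sf3b2 (-0.23), Sf3b4 (-0.00), Srsf3 (-0.32) and Srsf4 (-0.23). With the length trend removed the sign turned for Hnrnpa1 (-0.19), Hnrnpc (0.03), Hnrnpll (-0.02), Hnrnpu (0.14), Sf3a1 (0.02) and Srsf3 (-0.17). In limma on log2(FPKM + 1) the sign turned for Hnrnpa1 (-0.10), Hnrnpdl (-0.10), Hnrnpll (-0.08), Hnrnpr (-0.07), Hnrnpul2 (-0.09), Sf3b2 (-0.07), Srsf3 (-0.16) and Srsf4 (-0.07). With at least 50 counts in 3 libraries the sign turned for Srsf3 (-0.02). In DESeq2 the sign turned for Srsf3 (-0.02). It also turned when a library was left out for Hnrnpc (-0.04 to 0.03).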
